A study of Solanum lycopersicum with 4 samples.

Results

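The CONSTANS-like tandem genes of tomato chromosome 2 are 3 gene models that follow one another with a single identifier between each pair: Solyc02g089500.2, Solyc02g089520.1 and Solyc02g089540.2. They were taken by the first 14 characters of the identifier from the 34722 genes of the table, and all 3 had reads in every library and were tested. RNA sequencing was done on shoot apical meristems of tomato (Solanum lycopersicum), all wild type, the dome of dividing cells at the shoot tip that makes leaves and later flowers. Wild-type meristems at the passage to flowering gave the 2 transitional libraries, replicates A and B. Wild-type meristems that had made 6 leaves gave the 2 vegetative libraries, replicates C and D. Both groups came from seedlings raised in a greenhouse for 2 to 12 days, the labels name no other agent, and meristems were dissected after fixation in acetone. The labels give no cultivar, no number of plants per library and no hour of sampling. Nothing in them says that replicates came from separate sets of plants, so the p-values cover the spread between these samples alone, and that spread may be technical.

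CONSTANS is a transcription factor with B-box zinc fingers near its start and a CCT domain at its end. In Arabidopsis it links day length to flowering: its RNA follows the circadian clock, its protein is stabilised by light, and in leaf phloem it switches on the gene of the mobile florigen protein. Upstream in Arabidopsis, GIGANTEA and FKF1 remove the CDF repressors of CONSTANS, and COP1 marks its protein for breakdown in the dark. Cultivated tomato flowers largely without regard to day length. No file pairs an identifier with a name, so the class of the 3 genes is the one under which they were chosen. RefSeq's table of tomato genes, on assembly SLM_r2.1, lists genes with the symbols CO3 and CO1 as direct neighbours on chromosome 2, with 0 listed genes between them, but 0 identifiers of the deposited table matched it, and neither symbol is tied to an identifier here.

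The libraries held 16141074 to 23043526 reads in genes, and 0 reads in a library allow a level of up to 0.13 to 0.19 CPM (a limit of 3 reads, counting error only). Values are normalised counts, the reads of a gene divided by 1 size factor per library. Of 19607 genes tested with limma at a Benjamini-Hochberg adjusted p under 0.05, 529 stood higher and 233 lower in transitional meristems. The 4 meristem markers (entered as KNOX, WUSCHEL and CLAVATA3 genes) had reads in every library, with summed levels of 8094 to 9390 normalised counts in transitional and 10061 to 10480 in vegetative libraries, and 1 of the 4 fell. Of 5 markers entered as floral meristem regulators, 2 rose. Summed levels of all 5 were 10618 to 12382 in transitional and 8724 to 8998 in vegetative libraries. Most of each sum came from 2 other markers, neither of which passed the test. Of these, 1 was lower at the transition, at 3003 and 3220 in transitional A and B, against 3893 and 3827 in vegetative C and D. Its log2 change was -0.31 (limma adjusted p = 0.0817, unadjusted p = 0.0045). The remaining marker of the 5 was low, with 9 and 15 reads in transitional A and B, against 0 and 2 in vegetative C and D. It did not pass the test either (log2 change 2.90, limma adjusted p = 0.108, unadjusted p = 0.0077). Both markers that rose stood higher in vegetative C than in D, at 138 against 9.78 and at 183 against 71.4 normalised counts. With transitional A or B left out 1 of the 5 was called higher, and with vegetative C or D left out 0 were. Gene lists here rest on identifiers recalled from published tomato nomenclature, which the files do not allow to be checked.

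By this test 1 of the 3 copies, Solyc02g089540.2, changed between the stages, and it fell. The other copies did not pass the test, with fitted levels 0.792 and 1.18 times the vegetative ones. Lower calls made up 1.19% of all genes tested, and higher calls 2.7%. In bulk tissue, fewer cells of a type and less RNA per cell cannot be told apart.

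Solyc02g089540.2 is the last copy in identifier order. Its normalised counts were 129.7 and 121.4 in transitional A and B, against 416.7 and 330.6 in vegetative C and D. Both transitional values lay far below both vegetative ones, and the replicates of a stage lay much closer to each other than to the other stage. The means were 126 ± 5.89 in transitional and 374 ± 60.8 in vegetative meristems (SD, n = 2 each), resting on 128 and 120 reads against 302 and 338. On the log2(value + 1) scale the change was -1.56 (SE 0.16, limma adjusted p = 0.00431), a level 2.94-fold lower at the transition, with a 95% interval of 0.264 to 0.438 for the transitional to vegetative ratio. Among the 233 genes called lower, 31 had a larger fall, and the median change of those 233 was -0.74. Transitional A stood 0.09 above B on the log2 scale and vegetative C 0.33 above D. In the 6571 tested genes with a mean of 40 to 400 normalised counts, the median size of these differences was 0.19 for A and B and 0.16 for C and D. Their 90th percentiles were 0.58 for A and B and 0.45 for C and D. The call was lost without vegetative replicate C (log2 change -1.39, adjusted p = 0.201) and without D (log2 change -1.72, adjusted p = 0.146), where limma called 0 genes in all (1577 without C and 1867 without D at an unadjusted p under 0.05), and also with no filter on low genes (adjusted p = 0.0644).

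Solyc02g089500.2 is the first copy. Its normalised counts were 69.9 and 63.7 in transitional A and B, against 74.5 and 95.9 in vegetative C and D. Both transitional values lay below both vegetative ones, with transitional A and vegetative C close together and vegetative D at the top. The log2 change was -0.34 (SE 0.22, limma adjusted p = 0.488), with a 95% interval of -0.85 to 0.18. As a ratio of transitional to vegetative the interval runs between 0.555 and 1.13, so it holds an unchanged level but not the fall estimated for Solyc02g089540.2.

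Solyc02g089520.1 is the middle copy. Its normalised counts were 68.9 and 70.8 in transitional A and B, against 59.3 and 58.7 in vegetative C and D. Replicates of a stage lay almost on each other, on 43 to 70 reads per library, and the transitional libraries were the higher ones. The log2 change was 0.24 (SE 0.21, limma adjusted p = 0.615), with a 95% interval of -0.25 to 0.73. All 3 copies had stage groups that did not overlap, as did 49.3% of all genes tested, so a lack of overlap says little by itself. Gene lengths of the files' annotation are not used here, so levels are not ranked between copies.

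**Figure D1:**
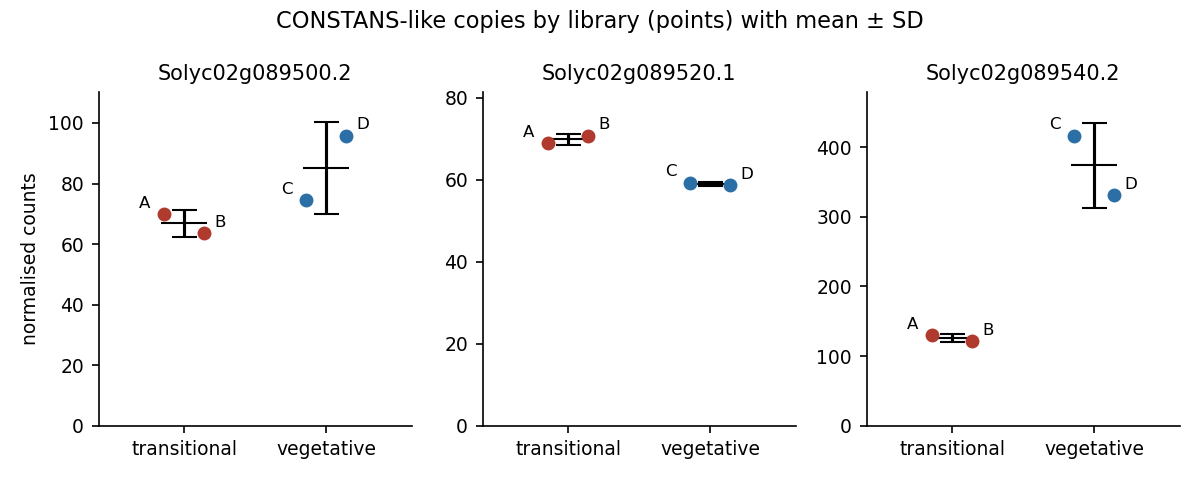
Normalised counts of each copy (vertical axes from 0, a scale for each panel) in transitional libraries A and B and vegetative libraries C and D; points are libraries, and bars are the mean ± SD of 2 libraries. Solyc02g089540.2 stands at 121.4 to 129.7 in transitional and 330.6 to 416.7 in vegetative libraries, while the other copies stay between 58.7 and 95.9 in all 4.

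The makeup of the reads of the cluster differed between the stages. A share of the reads of the 3 copies within a library does not depend on library scaling, and a gene's length affects both stages alike. Solyc02g089540.2 held 48.3% of these reads in transitional A (95% Wilson interval 42.3% to 54.3%) and 47.4% in B (41.4% to 53.6%). In vegetative meristems its share was 75.7% in C (71.2% to 79.6%) and 68.1% in D (63.9% to 72.1%). The intervals, which cover counting error only, do not meet between the stages. Solyc02g089520.1 held 25.7% and 27.7% in transitional A and B, against 10.8% and 12.1% in vegetative C and D, and its intervals did not meet either. The shares of a library sum to the whole, so a fall of 1 copy raises the others. In normalised counts, the copies other than Solyc02g089540.2 summed to 139 and 135 in transitional A and B, against 134 and 155 in vegetative C and D. Solyc02g089500.2 held 26.0% and 24.9% in transitional A and B, against 13.5% and 19.8% in vegetative C and D. Its interval in vegetative D (16.5% to 23.5%) overlapped those of both transitional libraries.

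**Figure D2:**
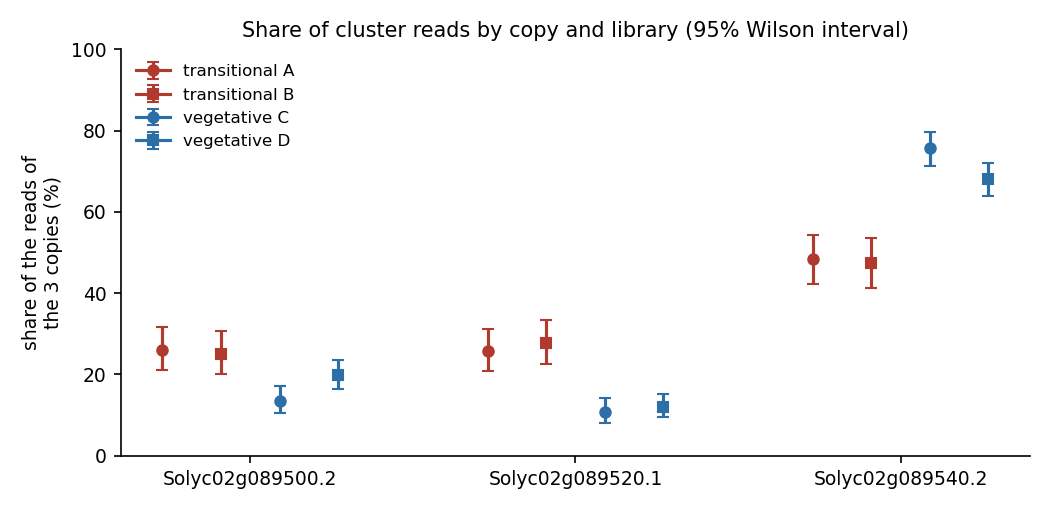
Share of the reads of the 3 copies held by each copy (vertical axis, percent) in transitional A and B (red) and vegetative C and D (blue); bars are 95% Wilson intervals. Solyc02g089540.2 falls to 47.4% to 48.3% in transitional libraries, against 68.1% to 75.7% in vegetative ones.

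Ratios between copies, taken within each library, were compared for all 3 pairs. Solyc02g089540.2 had 1.86 and 1.90 times the reads of Solyc02g089500.2 in transitional A and B, against 5.59 and 3.45 times in vegetative C and D. It had 1.88 and 1.71 times the reads of Solyc02g089520.1 in transitional A and B, against 7.02 and 5.63 times in vegetative C and D. The reads of Solyc02g089500.2 were 1.01 and 0.900 times those of Solyc02g089520.1 in transitional A and B, against 1.26 and 1.63 times in vegetative C and D. In each pair the ratio was lower in both transitional libraries than in either vegetative one. On the log2 scale the ratios changed by -1.22, -1.81 and -0.58 in that order, against differences between vegetative replicates of 0.70, 0.32 and 0.38. Each change exceeded the difference between replicates. An exact permutation test cannot pass the threshold with 2 libraries against 2: each pair gave p = 0.333 (two-sided), the smallest that test allows here, and 0.333 after Benjamini-Hochberg adjustment over the 3 pairs. The summed level of the cluster was 262 ± 8.93 normalised counts in transitional and 518 ± 46.2 in vegetative meristems (SD, n = 2 each). Of the net difference in normalised counts, 97.1% came from Solyc02g089540.2. The other copies moved in opposite directions and partly cancel in that net figure. Solyc02g089500.2 had means of 66.8 in transitional and 85.2 in vegetative meristems, and Solyc02g089520.1 had 69.9 and 59.0. No source used here tells whether the authors counted by strand, or what they did with reads of overlapping genes or reads that match more than 1 copy. Values of tandem copies are uncertain where reads could be split between them.

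The gene models around the copies did not move with Solyc02g089540.2 as a block. Solyc identifiers are numbered along the chromosome, so identifier order stands here for neighbourhood. The 22 neighbours taken were the 2 identifiers between the copies, the 10 before the first and the 10 after the last. Of these, 4 had no read in any library and 3 had too few reads to be tested. Of the 15 tested, 2 rose and 2 fell, where 3.89% of all genes tested were called, and the median log2 change was -0.01, against 0.01 over all genes tested. Stage groups did not overlap in 9 of the 15, against 49.3% of all genes tested. No neighbour fell by as much as Solyc02g089540.2. With 5 identifiers on each side 1 of 6 tested rose and 1 fell, and with 20 on each side 4 of 31 rose and 2 fell. With either vegetative library left out, limma called 0 neighbours, and likewise 0 genes of the lists that follow.

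Both gene models that stand between the copies had reads in every library, and neither passed the test. Solyc02g089510.2 had 32.4 and 38.4 normalised counts in transitional A and in B, against 46.9 and 47.0 in vegetative C and D (log2 change -0.40, SE 0.26, limma adjusted p = 0.484). Solyc02g089530.2, which lies next to the copy that fell, stood at 35.5 and 53.6 in transitional A and B, against 51.0 and 39.1 in vegetative C and D (log2 change -0.03, SE 0.30, limma adjusted p = 0.972). Its stages overlapped, and the 95% interval of -0.75 to 0.68 does not reach the change of Solyc02g089540.2. What these gene models encode is not annotated in the files.

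On the outer sides the immediate neighbours differed from each other. Solyc02g089490.2, just before the first copy, had 30.4 and 40.5 normalised counts in transitional A and in B, against 27.6 and 35.2 in vegetative C and D (log2 change 0.17, SE 0.31, limma adjusted p = 0.836). Solyc02g089550.2, just after the last copy, stood at 1014 and 906 in transitional A and B, against 1290 and 1313 in vegetative C and D. It fell with Solyc02g089540.2, but by 0.44 on the log2 scale (SE 0.09, limma adjusted p = 0.0417), and its 95% interval of -0.65 to -0.23 does not overlap that of the copy, -1.92 to -1.19.

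The other called neighbours lay further out and went both ways. Solyc02g089620.2, 8 identifiers after the last copy, had 2067 and 2182 normalised counts in transitional A and in B, against 622 and 540 in vegetative C and D (log2 change 1.87, SE 0.10, limma adjusted p = 0.000674). The identifier before it, Solyc02g089610.1, went the other way, with 1015 and 853 in transitional A and B, against 1376 and 1707 in vegetative C and D (log2 change -0.72, SE 0.13, limma adjusted p = 0.03). Solyc02g089460.1, 4 identifiers before the first copy, was close to silent in vegetative meristems. It stood at 51.7 and 46.5 in transitional A and B, against 4.14 and 2.93 in vegetative C and D, each vegetative value resting on 3 reads (limma adjusted p = 0.00653). Its transitional to vegetative ratio was 14.3 over the summed reads, with an exact 95% counting interval of 6.34 to 39.9. A rise and a fall thus stood side by side within the window, and the largest change in it was a rise.

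**Figure D3:**
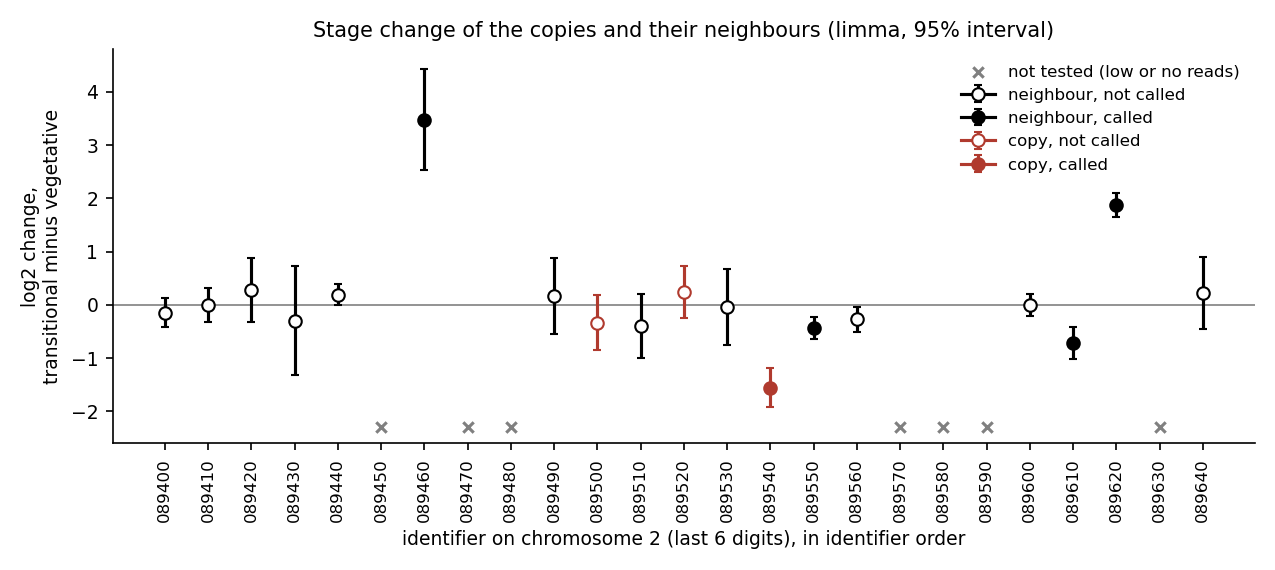
Change on the log2(value + 1) scale, transitional minus vegetative (vertical axis), of the 3 copies (red) and the 22 neighbours (black) in identifier order; bars are limma 95% intervals, filled points passed the test, and crosses at the bottom edge were not tested. Solyc02g089540.2 is the lowest point, at -1.56, between neighbours at -0.03 and -0.44.

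The other B-box genes, the wider family to which CONSTANS belongs, changed in both directions. Of 26 identifiers in the list, 1 had no reads at all and 5 had too few to be tested. Of the 20 tested, 3 rose, by 0.74 to 1.63 on the log2 scale, and 2 fell, by changes of -0.61 and -1.05, where 3.89% of all genes tested were called. The median log2 change was 0.13, against 0.01 over all genes tested, and stage groups did not overlap in 14 of the 20, against 49.3% of all genes tested. The largest rise was of a gene with 477 and 397 normalised counts in transitional A and in B, against 141 and 139 in vegetative C and D. The larger of the called falls was of a gene at 117 and 150 in transitional A and B, against 268 and 281 in vegetative C and D. None of the 20 fell by as much as Solyc02g089540.2, and a gene with a fall of -1.40 that was not called stood at 13.2 and 8.09 in transitional A and B, against 37.3 and 22.5 in vegetative C and D (limma adjusted p = 0.151).

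Genes placed above and below CONSTANS in the Arabidopsis photoperiod pathway also changed in both directions. Of 27 identifiers, 4 lacked any read, all of them CETS genes, the family of florigen and its antagonists. Of the 23 tested, 4 rose and 4 fell, where 3.89% of all genes tested were called, with a median log2 change of -0.08. Upstream of CONSTANS, 1 of 2 entries for GIGANTEA rose, by 1.41 on the log2 scale, with 5832 and 4900 normalised counts in transitional A and in B, against 2305 and 1766 in vegetative C and D. The other GIGANTEA entry changed by 0.57 without passing (limma adjusted p = 0.0937, unadjusted p = 0.00583). The single entry for FKF1, a blue light receptor that targets CDF proteins for breakdown in Arabidopsis, rose by 1.48, at 968 and 677 in transitional A and B, against 309 and 270 in vegetative C and D. Of 5 entries for CDF genes, repressors of CONSTANS in Arabidopsis, 2 fell, by changes of -1.77 and -1.06, and none rose. All 5 log2 changes were negative, from -1.77 to -0.02, and 4 of the 5 had an unadjusted limma p under 0.05. Over all 19607 genes tested, 3470 had an unadjusted p under 0.05. The gene with the change of -1.77, at 137 and 93.1 in transitional A and B, against 422 and 357 in vegetative C and D, had the only fall on the list larger than that of Solyc02g089540.2.

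Light receptors and clock genes on the same list differed from each other. None of 5 phytochrome and 2 cryptochrome entries passed the test, with log2 changes between -0.39 and 0.19. Of each class, 1 had an unadjusted limma p under 0.05, as did 3470 of all 19607 genes tested. The entry for COP1 changed by -0.13 without passing. The entry for LHY, a clock gene active around dawn in Arabidopsis, fell by 1.48 on the log2 scale, with 4336 and 4502 normalised counts in transitional A and in B, against 12700 and 12000.2 in vegetative C and D. Of 2 entries for PRR genes, clock repressors that act in turn over the day, 1 rose by 1.81 and 1 fell by 0.49. The entry for ELF3 changed by 0.16 without passing. With no hour of sampling in the labels, a different hour for each stage cannot be told apart from stage. The part of the hour of sampling in the fall of Solyc02g089540.2 was not tested.

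Downstream, florigen, the target of CONSTANS in Arabidopsis leaves, belongs to the CETS family, and the list gives its CETS entries no separate roles. Of 3 tested, 1 had 27.4 and 27.3 normalised counts in transitional A and in B, against 12.4 and 0 in vegetative C and D. It did not pass the test (limma adjusted p = 0.221). Another CETS entry rose, at 106 and 30.4 in transitional A and B, against 0 in both vegetative libraries. With the vegetative group set to 3 reads in total, a limit for counting error only, the transitional mean was 39.8-fold higher. The transitional libraries differed, and the same figure was 17.7-fold from B alone and 62.0-fold from A alone. The remaining CETS entry tested had 21.3 and 1.01 in transitional A and B, against 12.4 and 5.87 in vegetative C and D. It did not pass the test (log2 change -0.52, limma adjusted p = 0.856). The other 3 genes that rose on the photoperiod list changed by 1.41 to 1.81 on the log2 scale.

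**Figure D4:**
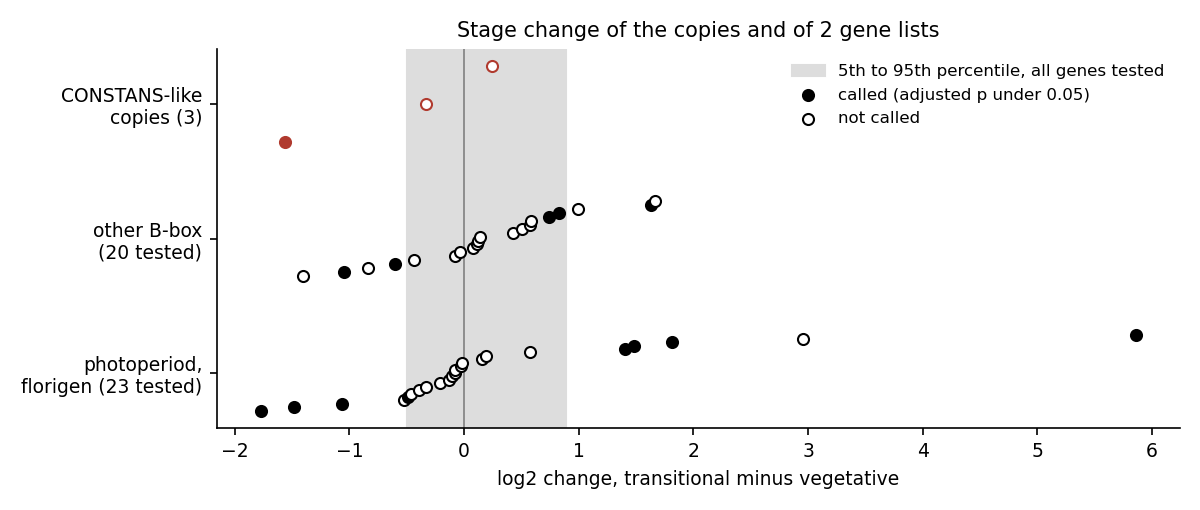
Change on the log2(value + 1) scale, transitional minus vegetative (horizontal axis), of the 3 copies (red), 20 other B-box genes and 23 photoperiod and florigen genes; filled points passed the test, and the grey band spans the 5th to 95th percentile of all genes tested (-0.50 to 0.89). Solyc02g089540.2, at -1.56, lies below the band; the point farthest right had 0 reads in vegetative libraries, and its place depends on the pseudocount of 1.

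Levels of other tissue markers are given because CONSTANS acts in leaf phloem in Arabidopsis. The 8 markers of expanding leaf (entered as Rubisco small subunit and chlorophyll-binding genes) all had reads, with summed levels of 10546 and 6313 in transitional A and B, against 7514 and 9603 in vegetative C and D. The stages overlapped, limma called 0 of the 8 and DESeq2 called 1 lower, and transitional A exceeded B in all 8. Of the 8, 2 had an unadjusted limma p under 0.05, as did 3470 of all 19607 genes tested. Across the 8 markers the excess of transitional A over B ranged from 0.21 to 2.68 on the log2 scale. The 1 marker entered for phloem stood at 290 and 336 in transitional A and B, against 396 and 392 in vegetative C and D (limma adjusted p = 0.2). Of 3 markers of wounding and jasmonate, 1 had no read in any library and the other 2 rose, with summed levels of 9774 and 5628 in transitional A and B, against 1936 and 2118 in vegetative C and D. The part of leaf, phloem or handling differences in the fall of Solyc02g089540.2 was not tested.

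The genes most alike in pattern were taken as those with the smallest root mean square difference from a copy over the 4 libraries, on log2 values centred on each gene's mean, among 19607 genes. For Solyc02g089500.2 they were Solyc07g054170.2 (0.0056) and Solyc11g011160.1 (0.0254), both of which also stood highest in vegetative D. For Solyc02g089520.1 they were Solyc07g055270.1 (0.0098) and Solyc02g080980.2 (0.0110), both a little higher in the 2 transitional libraries. Solyc02g089540.2 had no match that close, but this distance is not scaled to the size of the change, and changes of its size were rarer. Of genes tested, 2.57% had a larger absolute change than Solyc02g089540.2, against 22.9% for Solyc02g089500.2 and 32.4% for Solyc02g089520.1. The gene nearest to Solyc02g089540.2, called lower, differed by 0.0831. It had 16.2 and 16.2 normalised counts in transitional A and in B, against 51.0 and 46.9 in vegetative C and D. The next, Solyc07g008920.2, differed by 0.101, at 7.09 and 6.07 in transitional A and B, against 20.7 and 16.6 in vegetative C and D. None of these genes stood within 10 identifiers of the cluster, which says little, since only 15 of the 19607 genes tested did.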

How the data were processed

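The deposited signal is, judging from its steps, the read count of each gene over a size factor of its library. Named in the submitters' processing notes, with no role or order, are TopHat2 2.0.10, HTSeq 0.6.1p1 and DESeq2 1.6.3. Genome build: not given in the sources used here. Per library, 100% of values were whole multiples of 1 step (relative tolerance 1e-06), so whole reads were recovered. The values being normalised, limma 3.58.1 (trend, R 4.3.3) was fitted to log2(value + 1) over the 19607 genes that averaged 5 or more, fitting group alone (2 residual and 5.18 prior degrees of freedom). P-values were adjusted over all genes tested. Fold changes on this scale understate those of low genes. edgeR 4.0.16 and DESeq2 1.42.0 were run on recovered reads, edgeR calling 485 genes higher and 207 lower. Alternatives changed the pseudocount (0.5, 5), the filter (none, 1 CPM in 2 libraries), the scaling, the window of neighbours (5, 20), and left out each library. Permutation tests and intervals used SciPy 1.17.1 in Python 3.11.15. The limma step was also tested on simulated data.

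The members and lists were chosen with earlier results of these data known. Named genes were the copies, the identifiers between and next to them, at most 2 further called identifiers in each direction with the neighbours taken before the lists, and the 2 genes most alike to each copy unless this exceeded that limit. List members are not named, since no file pairs an identifier with a name. The titles' letters are used for replicates: vegetative C and D carry A and B in their descriptions and columns, and transitional A and B carry the numbers 1 and 2. The mutant of the study's design is not analysed here.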

Additional observations from a re-analysis of the deposited data

How the results depend on the processing

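No copy changed direction under any alternative. With all 4 libraries, the 9 other settings gave Solyc02g089540.2 a log2 change of -1.57 to -1.53 (adjusted p from 1.15e-08 to 0.0644), Solyc02g089500.2 one of -0.36 to -0.32 (0.477 to 0.966) and Solyc02g089520.1 one of 0.23 to 0.25 (0.606 or more).

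Without a filter (24021 genes with any read) Solyc02g089540.2 kept its log2 change of -1.56 but was not called, and limma called 6 genes higher and 1 lower in all. In that setting neighbours gave 1 higher and 0 lower with a median of 0.08, B-box genes 0 and 0, photoperiod genes 0 and 1, and 0 meristem, floral regulator and wound markers were called. DESeq2 called 1 expanding leaf marker lower. A window of 5 identifiers gave 1 neighbour higher and 1 lower, and one of 20 gave 4 higher.

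Leaving out 1 library gave Solyc02g089540.2 a log2 change of -1.72 to -1.39 (adjusted p from 0.00941 to 0.201), Solyc02g089500.2 one of -0.52 to -0.16 and Solyc02g089520.1 one of 0.22 to 0.26. These fits take the spread from the group that keeps 2 libraries. Over all genes 0 to 776 were called higher and 0 to 478 lower, with 0 in both directions without vegetative C or D. Ranges of members called higher and lower were 0 to 2 and 0 to 2 for neighbours, 0 to 3 and 0 to 2 for B-box genes, and 0 to 5 and 0 to 5 for photoperiod genes. Among markers they were 0 to 2 and 0 to 1 for expanding leaf, 0 to 0 and 0 to 3 for meristem, 0 to 1 and 0 to 1 for floral regulators, and 0 to 2 and 0 to 0 for wounding. The median log2 change ranged from -0.20 to -0.0050 for neighbours, 0.05 to 0.23 for B-box genes and -0.18 to 0.01 for photoperiod genes. The stage difference in the share of cluster reads ranged from -27.8 to -20.3 percentage points for Solyc02g089540.2, 5.71 to 11.9 for Solyc02g089500.2 and 14.2 to 16.2 for Solyc02g089520.1. Log2 ratios changed by -1.57 to -0.88 for Solyc02g089540.2 over Solyc02g089500.2, -1.97 to -1.65 over Solyc02g089520.1, and -0.77 to -0.39 for Solyc02g089500.2 over Solyc02g089520.1.

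No paired analysis was possible because the groups share no replicate letter or number, in the titles or in the descriptions. The cause of the lost calls was not tested. The copies without a call rest on 43 to 98 reads per library, and their 95% intervals of -0.85 to 0.18 and -0.25 to 0.73 give what 2 libraries per stage can show.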
